A study of Mus musculus with 4 samples.

Results

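The extracellular matrix genes of the alcohol-exposed liver were examined in mice that lacked Brg1 in hepatocytes. The set was chosen by name and comprised every collagen chain gene in the deposited table together with 22 named genes for matrix proteins, matrix enzymes, their inhibitors and hepatic stellate cells. The names matched 66 of the 22103 entries. *Col2a1*, *Col9a1* and *Col19a1* were listed at 0 in all 4 livers, which left 63 genes, 41 collagens and 22 others.

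Whole liver RNA was sequenced from 2 wild-type (WT) and 2 Brg1 LKO mice, all male and 8 weeks old at the start of the procedure. In the LKO mice both floxed copies of *Smarca4*, the gene that encodes Brg1, are deleted by Cre under the *Alb* promoter, which is active in hepatocytes, so stellate cells, endothelial cells and macrophages keep the intact gene. The WT mice were littermates. All 4 mice received ethanol by NIAAA feeding, a liquid ethanol diet that ends with an ethanol binge, for 15 days by the sample labels. The comparison is therefore of genotype within alcohol exposure, and no mouse without alcohol was analysed here. The sources do not say that a liver was pooled from several mice, and each label was taken as 1 mouse.

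Collagens are triple helices of 3 chains, and each chain is the product of its own gene. Fibril-forming collagens I, III and V build the interstitial fibers of scar tissue, collagen IV forms the sheet of basement membranes, and collagen VI forms beaded filaments around cells. In the liver most fibrillar collagen comes from stellate cells, the vitamin A-storing pericytes of the sinusoid, which on injury turn into contractile myofibroblasts that express *Acta2* (smooth muscle actin) and secrete collagen and *Timp1*. Portal fibroblasts and vascular smooth muscle contribute as well. Hepatocytes themselves secrete plasma fibronectin (*Fn1*) and are a source of collagen XVIII. Short ethanol feeding is known to cause steatosis and inflammation with little scar tissue in mice.

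The values were FPKM, reads scaled to transcript length and library size, so levels of different genes can be compared per length. The low values stepped with the FPKM of a single read, which gave estimated library totals of 72599105 to 80935546 reads. *Smarca4* itself was at 1.79 FPKM in WT 1, 1.95 in WT 2, 0.608 in LKO 1 and 0.579 in LKO 2, a log2 fold change of −1.50 ± 0.34 (SE), which fits the labels. Genes were compared with limma on log2(FPKM + 0.1) if their mean was at least 0.1 FPKM, and called at an unadjusted p under 0.05 with more than a 2-fold difference, the threshold of the study. Of 12346 genes tested, 0.98% were called and 2.0% had a p under 0.05. A permutation of 4 livers cannot reach a two-sided p below 0.333. Each p therefore rests on a model, in which limma combines the spread of the gene itself with that of all genes. Fold changes on this scale understate the differences of low genes. In whole liver RNA, fewer cells of a type and less RNA per cell cannot be told apart.

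The upstream sequences of 4 members are shown because their genes mark the patterns described afterwards. *Col3a1* had the highest log2 fold change of the fibril-forming chains, *Col6a3* followed a similar order of livers, *Col13a1* was lower in both LKO livers, and *Lrat* marks the quiescent stellate cell. Each run is the 250 bases that end just before the start of the RefSeq transcript, 5′ to 3′ on the strand of the gene, on GRCm38.p6, and lies outside annotated exons. Capitals mark the TATA box letters (TATAAA), the CCAAT box letters (CCAAT) and the GC box letters (GGGCGG), searched on both strands. The run CCGCCC is therefore a GC box on the opposite strand.
Col3a1: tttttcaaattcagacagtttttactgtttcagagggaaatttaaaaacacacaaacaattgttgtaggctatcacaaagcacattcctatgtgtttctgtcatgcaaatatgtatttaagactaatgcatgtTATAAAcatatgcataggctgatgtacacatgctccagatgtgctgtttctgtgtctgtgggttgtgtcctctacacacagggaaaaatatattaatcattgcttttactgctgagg
Col6a3: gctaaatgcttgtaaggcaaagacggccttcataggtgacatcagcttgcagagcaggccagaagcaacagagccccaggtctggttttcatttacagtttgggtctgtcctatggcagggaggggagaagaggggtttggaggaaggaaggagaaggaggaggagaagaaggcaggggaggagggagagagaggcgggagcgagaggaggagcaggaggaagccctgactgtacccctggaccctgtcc
Col13a1: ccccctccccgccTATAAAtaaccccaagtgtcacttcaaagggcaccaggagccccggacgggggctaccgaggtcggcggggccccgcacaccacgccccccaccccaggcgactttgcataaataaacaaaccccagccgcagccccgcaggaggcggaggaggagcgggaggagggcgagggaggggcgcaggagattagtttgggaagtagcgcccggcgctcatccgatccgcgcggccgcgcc
Lrat: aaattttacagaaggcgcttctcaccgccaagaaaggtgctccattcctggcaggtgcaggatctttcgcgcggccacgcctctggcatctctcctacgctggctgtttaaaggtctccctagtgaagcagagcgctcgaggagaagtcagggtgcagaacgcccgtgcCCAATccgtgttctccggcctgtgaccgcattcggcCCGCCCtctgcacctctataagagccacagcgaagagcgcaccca
These windows are chr1:45311288-45311537 (plus strand) for *Col3a1*, chr1:90843972-90844221 (minus strand) for *Col6a3*, chr10:61979109-61979358 (minus strand) for *Col13a1* and chr3:82903975-82904224 (minus strand) for *Lrat*. *Col3a1* and *Col13a1* hold the TATA box letters, *Lrat* holds those of the CCAAT box and of the GC box, and *Col6a3* holds none of them. RefSeq promoters were found for 45 of the 63 members. The TATA box letters were present in 13.3% of these members, against 6.7% of the promoters of all genes tested and 12.4% of all promoters in the table. In the same order, those of the CCAAT box were present in 35.6%, 35.2% and 33.8%, and those of the GC box in 62.2%, 55.7% and 32.7%. The 45 members include some under the filter on low values, so the shares of members and of genes tested come from unlike sets. Of the 6 members with the TATA box letters, only *Col3a1* and *Col13a1* were tested. The others, *Col10a1*, *Col11a2*, *Col17a1* and *Mmp13*, were under that filter. Each search covered the same 250 bases and is a description of letters, not of sites that a factor binds.

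No member was called. Of the 63 genes, 36 were tested and 27 had a mean under 0.1 FPKM. Of the 36, 0 passed the threshold, against 0.98% of all genes, and 0 had a p under 0.05, against 2.0%. The adjusted p of every member was above 0.99 by limma with Benjamini-Hochberg adjustment. So was that of *Smarca4*, the deleted gene, and 0 of the 12346 genes tested had an adjusted p under 0.05. The adjusted p therefore does not set the members apart from other genes. The log2 fold change of LKO over WT was above 0 for 22 members and below 0 for 14, with a median of 0.091, beside a median of −0.024 for all genes tested. The members ranged from −0.57 for *Col13a1* to 0.56 for *Fn1*, and the lowest p values were 0.124 and 0.132 for the same genes. The absence of a call does not show equal levels. The 95% intervals reached 0.678 to 0.958 to each side on the log2(FPKM + 0.1) scale. On that scale all 36 held 0, and 20 lay wholly within 2-fold in both directions. The scale understates the differences of low genes, so for these it sets no such limit on the fold change in FPKM. Single livers decided which members came under a p of 0.05. Without LKO 1 there were 4 (*Col13a1*, *Col15a1*, *Loxl1* and *Timp1*, 8.98% of all genes), without LKO 2 there were 5 (*Acta2*, *Col5a3*, *Col20a1*, *Lrat* and *Tagln*, 8.6% of all genes), without WT 1 there was 1 (*Fn1*, 2.05%) and without WT 2 there was 0 (0.737%). No member was called in these fits.

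**Figure D1:**
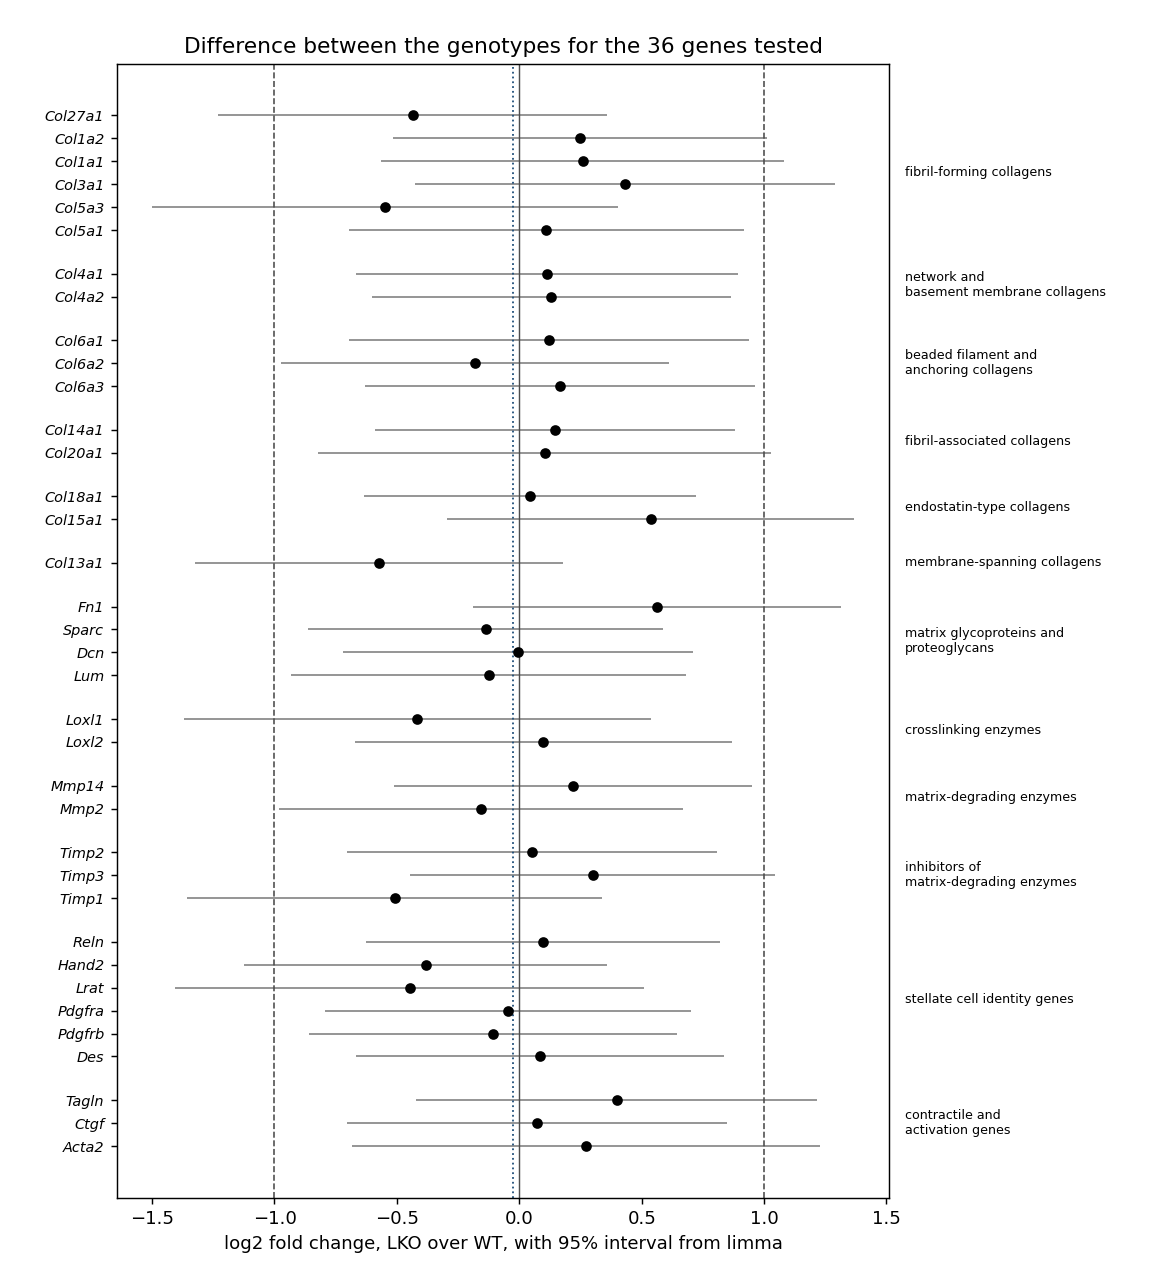
Log2 fold change of LKO over WT for the 36 members tested, grouped by role, with points for the estimate and bars for the 95% interval from limma. Dashed lines mark 2-fold and the dotted line the median of all genes tested (−0.024); every bar crosses 0, and 16 of the 36 reach past a dashed line.

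The spread between livers of a genotype was compared with that of all genes. Among the members, the median absolute difference on the log2 scale was 0.432 between the WT livers and 0.351 between the LKO livers, beside 0.162 between the group means. For all genes tested these medians were 0.307, 0.404 and 0.167. In 34 of the 36 members (94.4%) at least 1 of the within-genotype differences was larger than the difference between the means, compared with 88.2% of all genes tested. Single livers vary more than means of 2 livers, so a high share is the usual outcome where genotypes do not differ. Both LKO values lay above both WT values for 3 members (*Loxl2*, *Timp3* and *Des*) and below for another 3 (*Col13a1*, *Hand2* and *Pdgfrb*). Of all genes tested, 10.7% were separated upward and 10.0% downward, so these counts are near the background.

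*Fn1* and *Col18a1*, both made by hepatocytes among other cells, carried most of the level, and the other members were low. Together they made up 86.6% to 93.6% of the summed FPKM of all 63 members in the 4 livers. The other 61 members together summed to 61.1 FPKM in WT 1, 74.0 in WT 2, 67.7 in LKO 1 and 64.3 in LKO 2. Only 2 members had a mean of at least 100 FPKM, 10 lay between 1 and 100, and 24 between 0.1 and 1. The classical scar collagens were in the last of these classes.

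**Figure D2:**
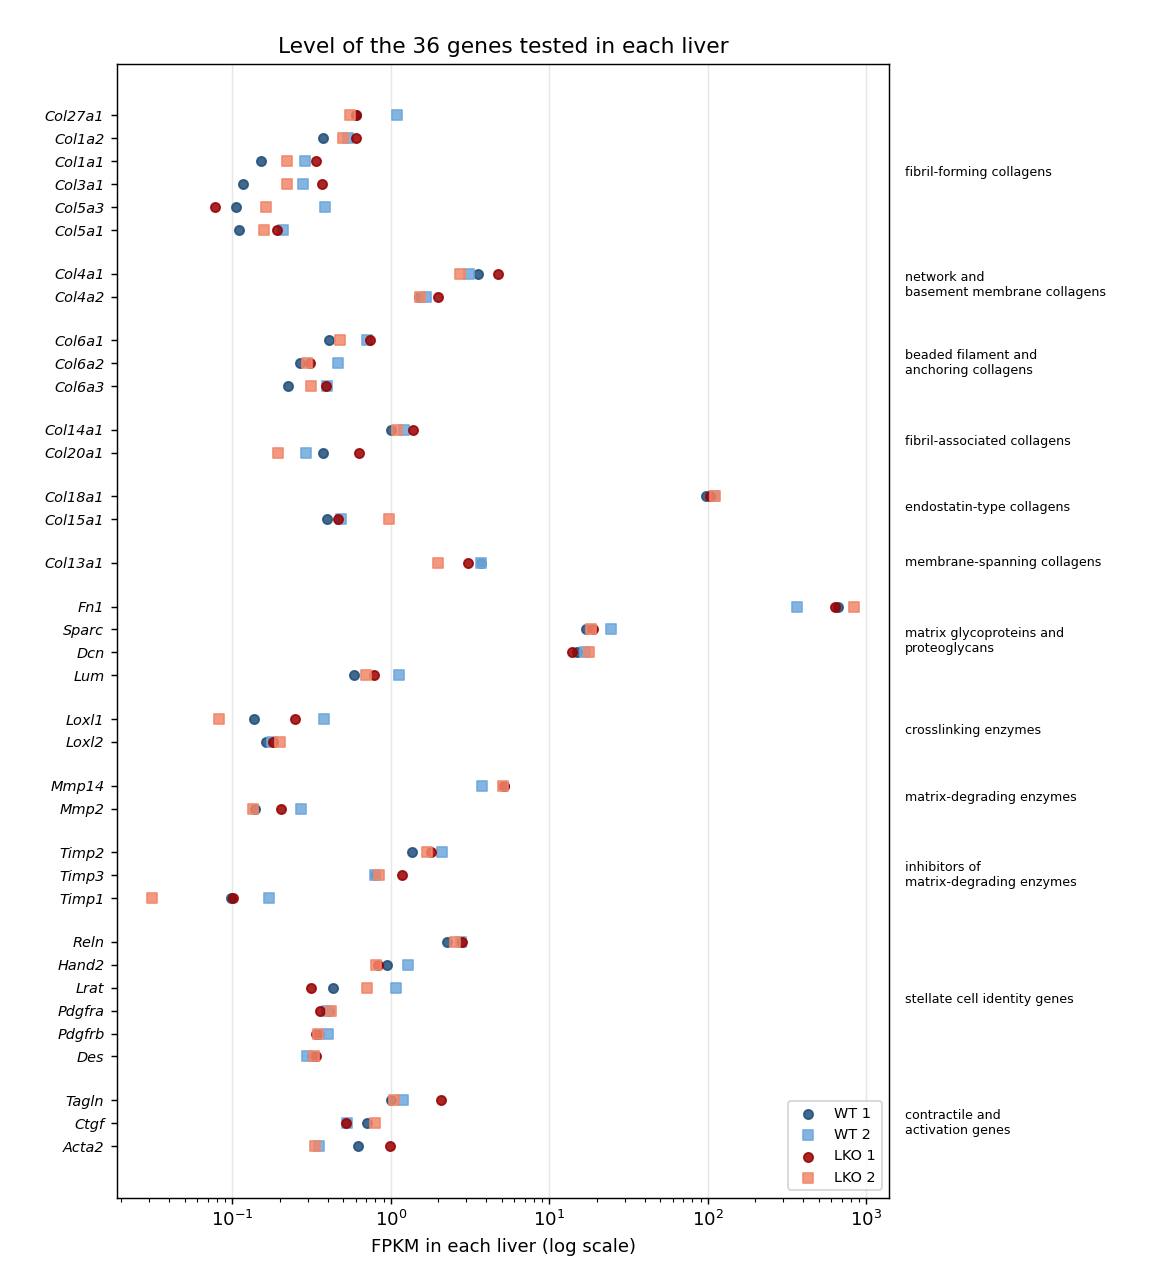
FPKM of each of the 36 members tested in the 4 livers, on a log axis and grouped by role. Blue points are WT livers and red points LKO livers, with circles for replicate 1 and squares for replicate 2; *Fn1* and *Col18a1* lie to the right of all others, and the colors overlap in 30 of the 36 genes.

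*Fn1* encodes fibronectin, a matrix glycoprotein that also circulates in plasma. It was the most abundant member, at 661 FPKM in WT 1, 367 in WT 2, 631 in LKO 1 and 838 in LKO 2. WT 2 was the lowest liver, and the other WT liver lay inside the LKO range. The means were 514 ± 208 FPKM for WT and 734 ± 147 FPKM for LKO (mean ± SD, n = 2 each), a log2 fold change of 0.56 ± 0.35 (SE), 95% interval −0.19 to 1.31. The difference moved with each liver left out. Without WT 1 it was 0.99, with a limma p of 0.0118, and without WT 2 it was 0.14. It was 0.77 without LKO 1 and 0.36 without LKO 2, and quantile normalization of the livers gave 0.37. In the fit without WT 1, *Fn1* was the only member with a p under 0.05, beside 2.05% of all genes. *Fn1* lies at chr1:71585524-71653175 (minus strand, 46 exons). Here and elsewhere positions are those of the transcript named in the table, on GRCm38 in GENCODE M21.

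*Col18a1* encodes collagen XVIII, a basement membrane proteoglycan whose end fragment is endostatin. It was the most abundant collagen and among the steadiest members, at 97.7 FPKM in WT 1, 109 in WT 2, 103 in LKO 1 and 111 in LKO 2. The highest liver exceeded the lowest by 1.13-fold, the smallest such ratio of the members tested, and the log2 fold change was 0.04 ± 0.32 (SE). *Col15a1*, its close relative in vascular basement membranes, was at 0.397 FPKM in WT 1, 0.484 in WT 2, 0.467 in LKO 1 and 0.975 in LKO 2. LKO 2 alone stood apart, at 2.09-fold of LKO 1, and the other 3 were close together. The log2 fold change of *Col15a1* was 0.54 ± 0.39 (SE). It was 1.00 without LKO 1 and 0.08 without LKO 2.

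The fibril-forming collagens were at low levels and without a common direction. Of 10 genes, 6 were tested, 4 with a log2 fold change above 0 and 2 below, with a median of 0.18. *Col1a2*, the second chain of collagen I, was at 0.374 FPKM in WT 1, 0.536 in WT 2, 0.608 in LKO 1 and 0.502 in LKO 2. *Col1a1*, the other chain of collagen I, was at 0.152 FPKM in WT 1, 0.289 in WT 2, 0.339 in LKO 1 and 0.221 in LKO 2. In both genes LKO 1 was the highest and WT 1 the lowest liver, so the groups overlapped. The log2 fold changes were 0.26 ± 0.38 (SE), 95% interval −0.56 to 1.08, for *Col1a1* and 0.25 ± 0.36 (SE), 95% interval −0.51 to 1.01, for *Col1a2*. With a liver left out, that of *Col1a1* ranged from −0.05 to 0.57 and that of *Col1a2* from 0.04 to 0.46.

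*Col3a1*, the single chain of collagen III, was at 0.118 FPKM in WT 1, 0.281 in WT 2, 0.368 in LKO 1 and 0.223 in LKO 2. Its livers fell in the same order as those of collagen I, and the highest exceeded the lowest by 3.13-fold. The log2 fold change was 0.43 ± 0.40 (SE), 95% interval −0.43 to 1.29, the highest of the fibril-forming chains, and leaving out WT 1 or WT 2 gave 0.03 or 0.84. The ratio of *Col1a1* to *Col1a2*, for a triple helix that contains more of the first chain, was 0.406 in WT 1, 0.539 in WT 2, 0.557 in LKO 1 and 0.439 in LKO 2. The ratio thus overlapped between genotypes. Of 7 ratios between members that were computed, 2 did not overlap, and none was tested. One was *Col3a1* to *Col1a1*, at 0.774 in WT 1, 0.972 in WT 2, 1.09 in LKO 1 and 1.01 in LKO 2, with both LKO livers above WT. A random split of the livers into groups of 2 separates a ratio in either direction with a probability of 0.333. The count of 2 among 7 ratios is therefore no evidence of a difference by genotype. *Col1a1* lies at chr11:94936224-94953042 (plus strand, 51 exons), *Col1a2* at chr6:4505493-4541544 (plus strand, 52 exons) and *Col3a1* at chr1:45311538-45349706 (plus strand, 51 exons).

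The collagen V chains differed from each other. *Col5a1*, the common chain that starts fibril assembly, was at 0.110 FPKM in WT 1, 0.208 in WT 2, 0.192 in LKO 1 and 0.159 in LKO 2, with a log2 fold change of 0.11 ± 0.38 (SE). *Col5a3*, a minor chain, was at 0.105 FPKM in WT 1, 0.385 in WT 2, 0.0774 in LKO 1 and 0.162 in LKO 2. Here WT 2 was high and LKO 1 low, and WT 1 lay between the LKO livers. Its log2 fold change of −0.55 ± 0.44 (SE) was the lowest of the group. It was −1.17 without WT 1 and 0.07 without WT 2. *Col27a1*, a cartilage-type fibrillar collagen, was at 0.602 FPKM in WT 1, 1.10 in WT 2, 0.603 in LKO 1 and 0.554 in LKO 2, where WT 2 was the high liver and the other 3 were alike. Its log2 fold change was −0.43 ± 0.37 (SE).

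Collagen IV, the sheet-forming collagen of basement membranes, was measured through its main chains. Of 9 network-forming genes, *Col4a1* and *Col4a2* were the 2 tested, and both were higher in LKO 1 than in the other livers. *Col4a1* was at 3.54 FPKM in WT 1, 3.11 in WT 2, 4.73 in LKO 1 and 2.73 in LKO 2. *Col4a2*, its partner in the basement membrane trimer, was at 1.50 FPKM in WT 1, 1.66 in WT 2, 1.98 in LKO 1 and 1.52 in LKO 2. The LKO livers enclosed the WT values of *Col4a1*, since LKO 2 was the lowest. The log2 fold changes were 0.11 ± 0.36 (SE) for *Col4a1* and 0.13 ± 0.34 (SE) for *Col4a2*. Leaving out LKO 1 turned the sign of both, to −0.27 and −0.05.

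The collagen IV genes lie head to head. *Col4a1* lies at chr8:11198423-11312826 (minus strand, 52 exons) and *Col4a2* at chr8:11312805-11449287 (plus strand, 48 exons), and the transcripts overlap by 22 bases at their starts. The ratio of *Col4a1* to *Col4a2* was 2.36 in WT 1, 1.88 in WT 2, 2.39 in LKO 1 and 1.80 in LKO 2. It was higher in replicate 1 than in replicate 2 of either genotype, numbers that do not mark a shared animal.

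Collagen VI was represented by its 3 main chains, which were tested, while *Col6a4*, *Col6a5* and *Col6a6* stayed under 0.1 FPKM. *Col6a1* was at 0.407 FPKM in WT 1, 0.711 in WT 2, 0.743 in LKO 1 and 0.477 in LKO 2. *Col6a2* was at 0.267 FPKM in WT 1, 0.466 in WT 2, 0.310 in LKO 1 and 0.294 in LKO 2. *Col6a3* was at 0.225 FPKM in WT 1, 0.395 in WT 2, 0.392 in LKO 1 and 0.312 in LKO 2. WT 1 was the lowest liver for all 3 chains, and the highest was LKO 1 for *Col6a1* and WT 2 for the other chains. The log2 fold changes were 0.12 ± 0.38 (SE) for *Col6a1*, −0.18 ± 0.37 (SE) for *Col6a2* and 0.17 ± 0.37 (SE) for *Col6a3*, each within the spread between livers. The ratio of *Col6a1* to *Col6a2*, the other ratio without overlap, was 1.53 in WT 1, 1.52 in WT 2, 2.40 in LKO 1 and 1.62 in LKO 2. LKO 1 stood apart, and LKO 2 was close to the WT livers. *Col6a3* was 0.528 to 0.654 times *Col6a1* across the livers.

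Among collagens that attach to fibrils, *Col14a1* and *Col20a1* were tested. *Col14a1*, a fibril-associated collagen of mesenchymal cells, was at 1.00 FPKM in WT 1, 1.21 in WT 2, 1.38 in LKO 1 and 1.10 in LKO 2, with a log2 fold change of 0.15 ± 0.34 (SE). *Col20a1* was at 0.375 FPKM in WT 1, 0.290 in WT 2, 0.626 in LKO 1 and 0.194 in LKO 2, so the LKO livers were the highest and the lowest of the 4. Its log2 fold change was 0.10 ± 0.43 (SE), and it turned from −0.55 without LKO 1 to 0.76 without LKO 2.

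*Col13a1* had the lowest fold change of all members. It encodes a collagen that spans the cell membrane and takes part in cell adhesion, and it was at 3.73 FPKM in WT 1, 3.70 in WT 2, 3.06 in LKO 1 and 1.98 in LKO 2. The WT livers were almost equal, both LKO livers lay below them, and LKO 2 was the lower. The LKO mean was 67.8% of the WT mean, a log2 fold change of −0.57 ± 0.35 (SE) with a 95% interval of −1.33 to 0.18. The direction held without any 1 liver, from −0.88 to −0.27, and without LKO 1 the limma p was 0.0306. *Col13a1* lies at chr10:61838236-61979108 (minus strand, 41 exons). It was the only one of 4 membrane-spanning collagens tested, and *Col17a1*, *Col23a1* and *Col25a1* had at most 14 reads in a liver. The rank of *Col13a1* depended on the pseudocount. At 0.01, *Timp1* (−1.04), *Col5a3* (−0.80) and *Loxl1* (−0.63) had lower log2 fold changes than *Col13a1* (−0.59).

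Of the matrix glycoproteins and proteoglycans other than *Fn1*, none was separated by genotype. *Sparc*, a collagen-binding protein secreted by mesenchymal and endothelial cells, was at 17.2 FPKM in WT 1, 24.4 in WT 2, 18.9 in LKO 1 and 18.4 in LKO 2. WT 2 was the highest liver, and the LKO values lay between the WT values, for a log2 fold change of −0.14 ± 0.34 (SE). *Dcn*, the small proteoglycan decorin that coats collagen fibrils, was at 14.9 FPKM in WT 1, 16.9 in WT 2, 14.0 in LKO 1 and 17.8 in LKO 2. Its log2 fold change was −0.0036 ± 0.33 (SE), the smallest in size of the members tested. *Lum*, the related proteoglycan lumican, ranged from 0.583 FPKM in WT 1 to 1.13 FPKM in WT 2, with both LKO livers between them.

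The lysyl oxidases, which crosslink collagen, were low in all livers. *Loxl1*, a lysyl oxidase of elastic fibers, was at 0.137 FPKM in WT 1, 0.379 in WT 2, 0.249 in LKO 1 and 0.0825 in LKO 2. *Loxl2*, which crosslinks collagen IV, was at 0.163 FPKM in WT 1, 0.179 in WT 2, 0.180 in LKO 1 and 0.200 in LKO 2. The *Loxl1* livers spread over 4.59-fold, with a high and a low liver in either genotype, whereas the 4 *Loxl2* livers lay within 1.23-fold with LKO above WT. The log2 fold changes were −0.42 ± 0.44 (SE) for *Loxl1* and 0.10 ± 0.36 (SE) for *Loxl2*. Without LKO 1, that of *Loxl1* was −0.88 with a limma p of 0.0219. *Lox*, the founding lysyl oxidase, was under the filter with 32 reads in WT 1, 14 in WT 2, 35 in LKO 1 and 9 in LKO 2.

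*Mmp14*, a membrane-bound collagenase that activates other proteases, was the most abundant matrix protease of the members, at 5.16 FPKM in WT 1, 3.78 in WT 2, 5.19 in LKO 1 and 5.13 in LKO 2. WT 2 was low and the other 3 livers were nearly equal, for a log2 fold change of 0.22 ± 0.34 (SE) that was 0.44 without WT 1 and 0 without WT 2. *Mmp2*, a gelatinase of stellate cells, was at 0.138 FPKM in WT 1, 0.272 in WT 2, 0.202 in LKO 1 and 0.136 in LKO 2, with a log2 fold change of −0.16 ± 0.38 (SE). *Mmp13*, the main interstitial collagenase of mice, had 1 read in LKO 2 and 0 in the other livers, where a count of 0 allows up to 3 reads.

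Inhibitors of these proteases showed no shared direction. *Timp3*, which is bound to the matrix, was at 0.793 FPKM in WT 1, 0.790 in WT 2, 1.17 in LKO 1 and 0.846 in LKO 2. Both LKO livers lay above the nearly equal WT livers, though LKO 2 by little, and the log2 fold change was 0.30 ± 0.35 (SE). It was 0.09 without LKO 1 and 0.51 without LKO 2. *Timp1*, the inhibitor that activated stellate cells secrete, was at 0.0979 FPKM in WT 1, 0.170 in WT 2, 0.101 in LKO 1 and 0.0312 in LKO 2. These are only 7 reads in WT 1, 12 in WT 2, 7 in LKO 1 and 2 in LKO 2, and WT 2 was the highest and LKO 2 the lowest. The log2 fold change of *Timp1* was −0.51 ± 0.39 (SE). Without LKO 1 it was −0.82 with a limma p of 0.0407. It was −0.20 without LKO 2, −0.73 without WT 1 and −0.28 without WT 2. *Timp2* was the most abundant inhibitor, from 1.36 FPKM in WT 1 to 2.1 FPKM in WT 2, with both LKO livers inside that range.

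The genes that identify stellate cells were detected in every liver. Of 6 genes, 2 had a log2 fold change above 0 and 4 below, with a median of −0.08. *Lrat*, the enzyme that esterifies retinol for storage, was at 0.429 FPKM in WT 1, 1.08 in WT 2, 0.313 in LKO 1 and 0.711 in LKO 2. Replicate 2 was the higher liver in either genotype, by 2.51-fold in WT and 2.27-fold in LKO. The log2 fold change of *Lrat* was −0.45 ± 0.45 (SE), from −1.02 without WT 1 to 0.13 without WT 2. *Reln*, the secreted glycoprotein reelin, was the most abundant stellate gene of the set, at 2.25 FPKM in WT 1, 2.77 in WT 2, 2.82 in LKO 1 and 2.55 in LKO 2, with a log2 fold change of 0.10 ± 0.34 (SE).

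*Hand2*, a transcription factor of quiescent stellate cells, was at 0.940 FPKM in WT 1, 1.28 in WT 2, 0.830 in LKO 1 and 0.807 in LKO 2. The LKO values were both lower than the WT values, and the log2 fold change was −0.38 ± 0.35 (SE), from −0.58 to −0.18 with a liver left out. The platelet-derived growth factor receptors and desmin were close to level. *Pdgfrb*, the receptor through which stellate cells respond to PDGF, was at 0.353 FPKM in WT 1, 0.402 in WT 2, 0.337 in LKO 1 and 0.348 in LKO 2, a log2 fold change of −0.11 ± 0.35 (SE). *Des*, an intermediate filament of pericytes and muscle, was at 0.318 FPKM in WT 1, 0.298 in WT 2, 0.338 in LKO 1 and 0.328 in LKO 2, a log2 fold change of 0.09 ± 0.35 (SE). Their groups did not overlap, and the LKO mean was 90.8% of the WT mean for *Pdgfrb* and 108% for *Des*. *Pdgfra* lay between 0.36 and 0.42 FPKM in all 4 livers.

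*Acta2* and *Tagln*, the contractile genes, were highest in LKO 1 and not in the other LKO liver. *Acta2*, the usual marker of activated stellate cells, was at 0.617 FPKM in WT 1, 0.351 in WT 2, 0.991 in LKO 1 and 0.333 in LKO 2. LKO 1 was 2.98-fold above LKO 2, and LKO 2 was the lowest liver of all. The log2 fold change was 0.27 ± 0.45 (SE), 95% interval −0.68 to 1.23, and it was −0.40 without LKO 1 and 0.94 without LKO 2. *Tagln*, the actin-binding protein transgelin of smooth muscle, was at 1.00 FPKM in WT 1, 1.20 in WT 2, 2.08 in LKO 1 and 1.04 in LKO 2, with LKO 1 at 2.00-fold of LKO 2. Its log2 fold change was 0.40 ± 0.38 (SE). *Ctgf*, a matricellular growth factor, was at 0.705 FPKM in WT 1, 0.528 in WT 2, 0.524 in LKO 1 and 0.797 in LKO 2, a log2 fold change of 0.07 ± 0.36 (SE) with no such excess in LKO 1. *Actg2*, a close paralog of *Acta2* whose reads could be exchanged with it, had 0, 11, 32 and 0 reads in WT 1, WT 2, LKO 1 and LKO 2.

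Many members shared an order of livers that did not follow genotype. The order LKO 1, WT 2, LKO 2, WT 1, from highest to lowest, was found for 8 of the 36 members tested (22.2%) and for 2.9% of all genes tested. These were *Col1a1*, *Col1a2*, *Col3a1*, *Col4a2*, *Col6a1*, *Col14a1*, *Reln* and *Tagln*. This order was picked from the same values as the most frequent among the members. That choice by itself raises their share over that of all genes. A further 6 members (16.7%, against 5.4% of all genes) differed only in that WT 2 came first, namely *Col5a1*, *Col6a2*, *Col6a3*, *Sparc*, *Lum* and *Timp2*. WT 1 was the lowest liver for 11 of the 16 collagens tested (68.8%, against 31.5% of all genes), and LKO 1 was the highest for 8 (50.0%, against 12.2%).

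The livers also differed in the general scale of their FPKM, with median-ratio size factors of 0.911 and 1.13 for WT and 0.885 and 1.11 for LKO. After division by these factors, a setting added after the values were seen, LKO 1 was the highest liver for 11 of the 16 collagens (68.8%, against 30.0% of all genes). The lowest liver changed with the rescaling, to LKO 2 for 8 (50.0%, against 28.1%) and WT 1 for 5 (31.2%, against 15.8%). The order LKO 1, WT 2, LKO 2, WT 1 was then found for 6 members (16.7%, against 3.4%). *Col1a1*, *Col1a2* and *Col3a1* kept it, and *Col5a1*, *Col6a3* and *Timp2* took it up. *Col4a2*, *Col6a1*, *Col14a1*, *Reln* and *Tagln* no longer followed it, so the members in this order changed with the scaling. These shares describe 4 livers, and genes of a common cell source are not independent of one another.

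**Figure D3:**
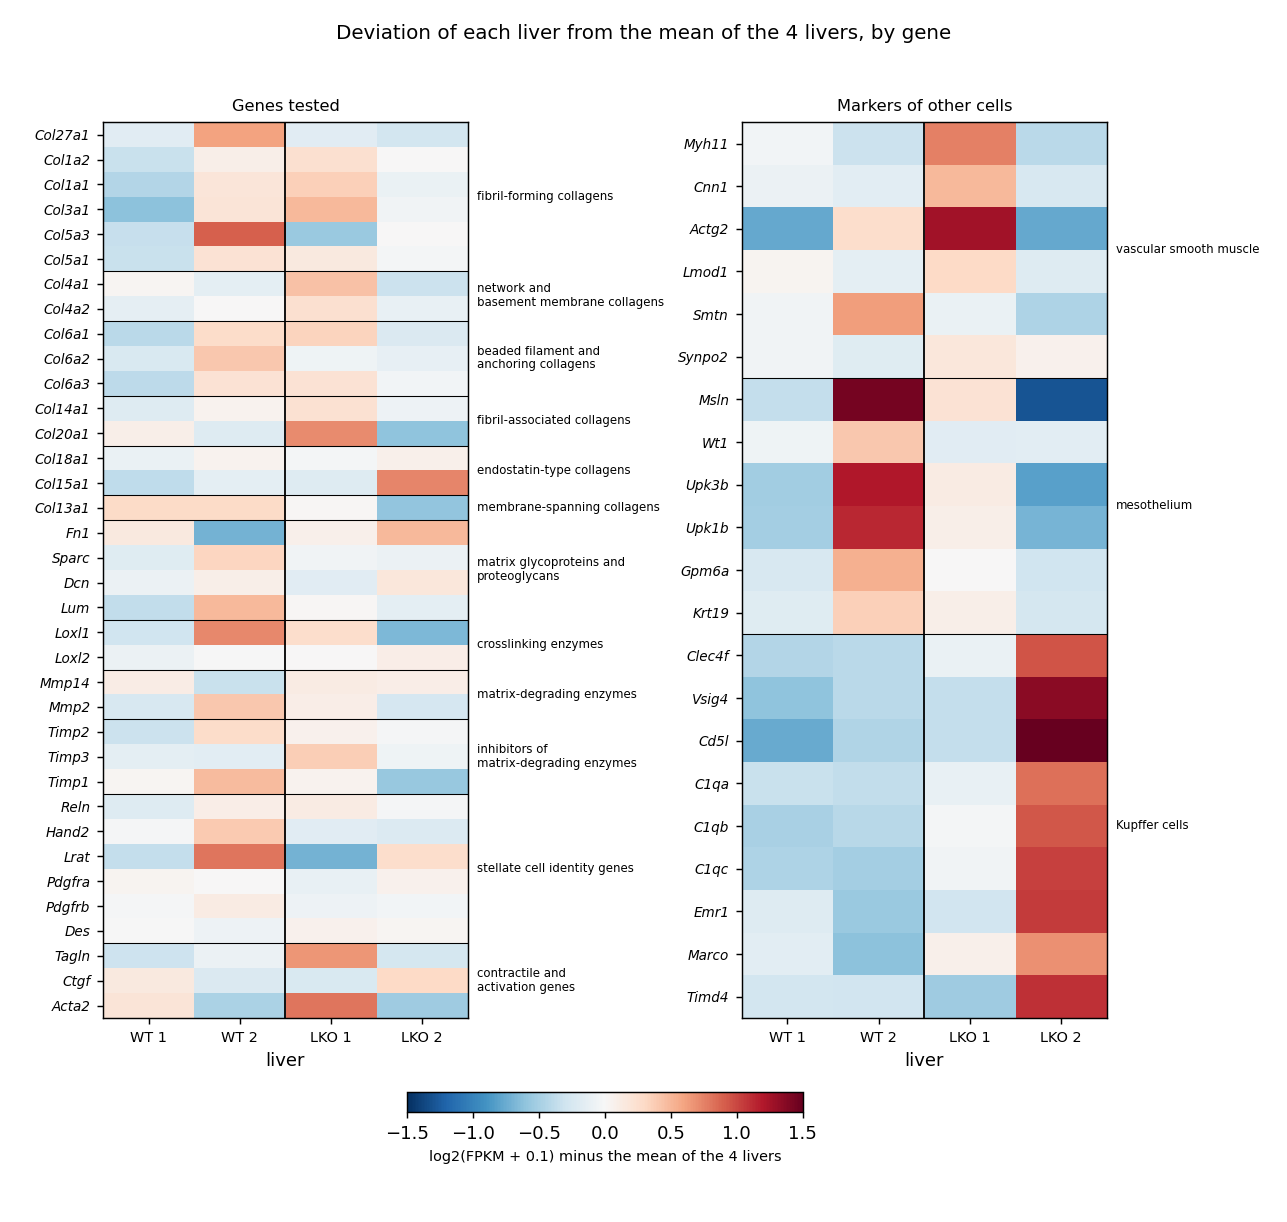
Deviation of each liver from the mean of the 4 livers on the log2(FPKM + 0.1) scale, for the 36 members tested (left) and for markers of smooth muscle, mesothelium and Kupffer cells (right). Red is higher and blue lower; *Acta2* and *Tagln* are reddest in LKO 1 as are *Myh11* and *Actg2*, mesothelial markers in WT 2 and Kupffer cell markers in LKO 2.

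Markers of other cells moved between the same livers. Of 7 vascular smooth muscle markers, 6 were detected, 5 of them were highest in LKO 1 (12.2% of all genes tested), and *Myocd* was at 0 in all livers. Of the 6, *Cnn1*, *Lmod1* and *Synpo2* were under the filter, so the genes tested are not their background. After division by the size factors LKO 1 was again the highest for 5, against 30.0% of all genes tested. *Myh11*, the smooth muscle myosin, had 66 reads in WT 1, 44 in WT 2, 149 in LKO 1 and 36 in LKO 2, and *Cnn1* had 2, 1, 12 and 0 reads in WT 1, WT 2, LKO 1 and LKO 2. *Smtn*, the most abundant of the list with a mean of 1.75 FPKM, was highest in WT 2 instead. The summed level of the list was 1.80, 2.85, 2.31 and 1.30 FPKM in these livers. All 6 mesothelial markers were highest in WT 2 (42.1% of all genes tested) and 5 of 6 were lowest in LKO 2 (12.9%), with 20, 110, 37 and 2 reads for *Msln* in the same order and sums of 0.429, 1.80, 0.753 and 0.255 FPKM in these livers. After division by the size factors, all 6 were highest in WT 2 (24.2% of all genes tested) and lowest in LKO 2 (28.1%). *Krt19*, which has the highest mean of the mesothelial list (0.268 FPKM), also marks bile ducts. The part of these cells in the values of *Acta2*, *Tagln* and the collagens was not tested.

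All 9 Kupffer cell markers were highest in LKO 2 (41.0% of all genes tested) and above 0 in log2 fold change, with sums of 46.0, 46.7, 58.0 and 129 FPKM in these livers. Of these, 5 had a p under 0.05 (2.0% of all genes) and 2 were called (0.98%), *Cd5l* at 3.92, 4.85, 5.22 and 19.9 FPKM and *Vsig4* at 2.33, 2.69, 2.79 and 9.32 FPKM in the order of livers above. The marker with the highest mean was *C1qa* at 16.2 FPKM. The 11 sinusoidal endothelial markers had a median log2 fold change of −0.23 with no p under 0.05, led by *Pecam1* at 7.08 FPKM, and 8 of them were lowest in LKO 1, as were 46.6% of all genes tested. After division by the size factors, 8 of the 11 were again lowest in LKO 1 (72.7%, against 30.1% of all genes tested). Of 11 portal fibroblast markers, 8 were tested, 0 had a p under 0.05, 7 of the 11 were highest in WT 2 (42.1% of all genes), and *Gas1* had the highest mean at 0.474 FPKM. The bile duct markers (4 tested, 0 with a p under 0.05, highest mean *Spp1* at 2.74 FPKM) included *Cftr*, with 1 read in WT 1 and 0 in the other livers. The 9 hepatocyte markers, led by *Alb* at 11900 FPKM, ran from −0.25 to 0.46. WT 2, the lowest liver for *Fn1*, was the lowest for 4 of these 9 (9.1% of all genes), WT 1 for 3 and LKO 1 for 2, and after division by the size factors WT 2 was the lowest for 8 (3208 of the 12346 genes tested). The part of these differences in the results for matrix genes was not tested.

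A broader list of stellate cell genes gave no call. Of 17 tested, 14 had a log2 fold change below 0, beside 6650 of all 12346 genes tested, with a median of −0.26, and 0 had a p under 0.05. LKO lay below WT without overlap for 4 (10.0% of all genes tested) and above for 2 (10.7%). LKO 1 was the lowest liver for 11 of the 18 detected, compared with 46.6% of all genes, and WT 2 the highest for 12, compared with 42.1%. *Colec11*, a collectin and the gene of that list with the highest mean (8.38 FPKM), had a log2 fold change of −0.0025. After division by the size factors, LKO 1 was the lowest liver for 9 of the 18 (50.0%, against 30.1% of all genes).

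The enzymes that modify and export procollagen included no called gene. Of 17 tested, 8 had a log2 fold change above 0 and 9 below, and 1 had a p under 0.05 (2.0% of all genes tested). This was *P4ha2*, a catalytic subunit of the hydroxylase that stabilizes the triple helix, at 0.307 FPKM in WT 1, 0.532 in WT 2, 0.197 in LKO 1 and 0.153 in LKO 2, a log2 fold change of −0.89 ± 0.37 (SE) with a limma p of 0.0329. The LKO values were both lower than the WT values, as for 10.0% of all genes tested. *P4hb*, the other subunit and a general chaperone of secretory cells, was the most abundant at 224 FPKM in WT 1, 198 in WT 2, 229.7 in LKO 1 and 396 in LKO 2, with LKO 2 high and a log2 fold change of 0.52 ± 0.34 (SE) with a limma p of 0.153.

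Of 15 matrix receptors tested, 1 was called (0.98% of all genes tested). A p under 0.05 was found for 1 higher and 1 lower receptor (2.0% of all genes tested). *Cd44*, the hyaluronan receptor of leukocytes and injured epithelium, was at 0.737 FPKM in WT 1, 0.582 in WT 2, 0.957 in LKO 1 and 2.58 in LKO 2. Its excess was mainly in LKO 2, as for the Kupffer cell markers, and the log2 fold change was 1.15 ± 0.43 (SE) with a limma p of 0.0169. *Ddr1*, a receptor tyrosine kinase that binds collagen, was at 0.647 FPKM in WT 1, 1.06 in WT 2, 0.426 in LKO 1 and 0.434 in LKO 2, a log2 fold change of −0.81 ± 0.36 (SE) with a limma p of 0.0415. The receptor with the highest mean was *Sdc4*, a heparan sulfate proteoglycan, at 102 FPKM with a log2 fold change of 0.05.

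Other matrix lists gave no p under 0.05. These were 10 basement membrane genes, 18 interstitial matrix genes, 17 proteases and inhibitors and 20 activation signals of stellate cells, the last including *Ctgf*. Their median log2 fold changes were −0.10, −0.10, −0.10 and 0.05. The genes with the highest means were *Agrn* at 4.47 FPKM in the basement membrane list, *Vtn* at 338 FPKM in the interstitial list and *Agt* at 178 FPKM among the activation signals.

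The 27 members under the filter were low. Of these, 25 were collagens, 16 had reads in all 4 livers, and 8 had at most 3 reads in every liver. *Col12a1* had the most, with 63 reads in WT 1, 160 in WT 2, 89 in LKO 1 and 24 in LKO 2, and its mean of 0.0923 FPKM was the highest under the filter, while *Timp1* had the lowest mean above it. Next came *Col5a2*, a chain of collagen V, with 44 reads in WT 1, 50 in WT 2, 51 in LKO 1 and 33 in LKO 2. LKO lay below WT without overlap for 6 of the 27, beside 12.1% of all detected entries under the filter, and above for 4, beside 13.7%. The fibrillar chain *Col11a2* held 8 to 32 estimated reads a liver, and *Col22a1*, a collagen of tissue junctions, 26 to 46. *Col4a4*, a chain of kidney basement membrane, held 2 to 26 and *Col4a6*, another collagen IV chain, 0 to 8. *Col8a2* held 0 to 5, *Col28a1* 0 to 4 and *Col26a1* 1 to 2. *Col11a1*, *Col10a1* and *Col9a2*, which are chains of cartilage collagens, held at most 1 estimated read in any liver. The 6 without overlap below WT were *Col6a4*, *Col6a6*, *Col7a1*, *Col8a1*, *Col16a1* and *Col24a1*, and the 4 above were *Col4a3*, *Col4a5*, *Col9a3* and *Col23a1*.

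**Figure D4:**
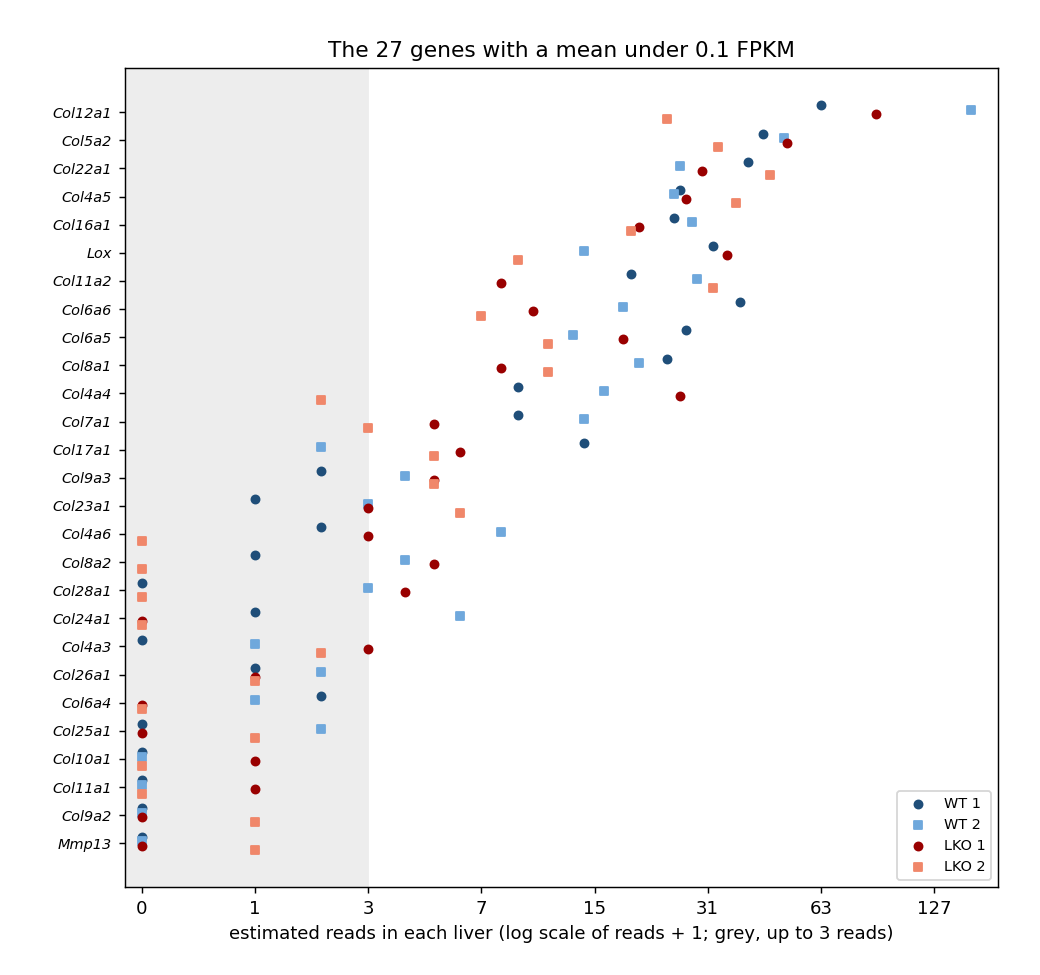
Estimated reads of the 27 members under the filter in each liver, on a log scale of reads + 1, with WT livers in blue and LKO livers in red. The grey band covers up to 3 reads; the red points of *Col8a1* and *Col6a6* lie to the left of the blue ones, while those of most other genes mix.

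*Col8a1*, a short-chain collagen of vessel walls, had 24 reads in WT 1, 20 in WT 2, 8 in LKO 1 and 11 in LKO 2. In the fit without a filter its limma p was 0.0480 with an adjusted p of 1.00, and it was the only one of the 63 members under 0.05, against 2.55% of all entries in that fit. *Col6a6*, another chain of collagen VI, had 38 reads in WT 1, 18 in WT 2, 10 in LKO 1 and 7 in LKO 2 and a p of 0.0664 in that fit. Both genes were lower in each LKO liver, and both were chosen after their values were seen. *Col24a1* had 1 and 6 reads in the WT livers and 0 in the LKO livers, where a count of 0 allows up to 3 reads in each. Such limits cover counting error only.

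Some reads cannot be assigned with certainty. In 11 members the estimated reads were not within 0.1 of a whole number in at least 1 liver, among them *Acta2*, *Dcn*, *Hand2* and *Tagln*, so their read estimates are approximate. Exons of 15 of the 36 members tested overlap exons of another annotated gene. These include *Timp3* with *Syn3*, *Tagln* with *Pcsk7*, *Hand2* with *Hand2os1* and *Fn1* with *Apol7d*, all on opposite strands. On the same strand, *Col3a1* overlaps *Gm47302*, *Col20a1* overlaps *BX649560.1*, *Loxl2* overlaps *Mir6950* and *Pdgfra* overlaps *Mir7025*. Counting by strand cannot separate such pairs. Whether reads were counted by strand is not given in the sources used here, so the share of such neighbors in these values is unknown.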

How the data were processed

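RNA-seq of 2 WT and 2 Brg1 LKO livers was analysed. The deposited table holds FPKM. The study's methods name Trimmomatic, alignment to GRCm38 by HISAT2 and Cufflinks for FPKM, while the submitters' processing notes list HISAT2 2.0.4 and StringTie 2.1.4, and which tool made the deposited FPKM is not given in the sources used here. The labels name a BGIseq protocol and the methods a stranded Illumina kit. No scaling between livers is stated. The read counts were not used here.

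In the table, 27 symbols changed into dates were restored and 83 entries shared a symbol. Of low values, 88.4% to 89.6% were within 0.1 of a whole read on transcripts of at least 2000 bases (GENCODE M21), so single-gene reads are estimates.

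Genes whose mean reached 0.1 FPKM were fitted as log2(FPKM + 0.1) by limma (version 3.58.1, R 4.3.3, moderated with an intensity trend), with Benjamini-Hochberg adjustment over all of them. The call by unadjusted p and fold change was tried on simulated data, with changes larger than that of any member. The adjusted p was not scored there, and the trial does not show how changes as small as those of the members would fare. Whether replicates came from separate litters is not stated, so p-values measure only the spread between these livers. Python 3.11.15 was used otherwise. The members and lists were chosen with earlier results of these data known. Values in every liver are given for members with a mean of at least 5 FPKM, for the highest and lowest fold change of each role, for *Acta2*, *Lrat*, *Des*, *Pdgfrb*, *Col1a1*, *Col1a2*, *Col3a1* and *Timp1*, and for listed genes that were called, while the gene with the highest mean of a list is given by that mean. *Col5a1*, *Col6a1*, *Col13a1*, *Col27a1*, *Hand2*, *Lum*, *Pdgfra*, *Timp2*, *Ddr1*, *P4ha2* and the smooth muscle and mesothelial genes were chosen after their values were seen. As alternatives, the pseudocount was set to 1 or 0.01, the filter was dropped or raised to a mean of 1 FPKM, livers were rescaled by median ratios or quantiles, the trend was dropped, replicate number was used as a block, voom was run on the estimated reads, and each liver was left out. The values of 1 gene of the protease list are not reported here.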

Additional observations from a re-analysis of the deposited data

How the results depend on the processing

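No member passed the threshold under any of the 13 alternatives. The number of members with a p under 0.05 stayed at 0 except without the filter (1, *Col8a1*) and with single livers left out, where it ranged from 0 to 5. It was 1 without WT 1 (*Fn1*), 4 without LKO 1 (*Col13a1*, *Col15a1*, *Loxl1* and *Timp1*, 8.98% of all genes in that fit) and 5 without LKO 2 (*Acta2*, *Col5a3*, *Col20a1*, *Lrat* and *Tagln*, 8.6% of all genes), with no member in more than 1 of these fits, and 0 without WT 2 (0.737%). Where 1 liver was left, it was assumed to vary like the other group. The median log2 fold change of the members ranged from −0.051 to 0.131 with a liver left out, around 0.091. The labels do not say that a replicate number marks a shared litter or day, and the deviations of same-numbered livers correlated at 0.031 across genes. That correlation leaves out the overall scale, which was higher in replicate 2 of both genotypes (size factors 1.13 and 1.11, against 0.911 and 0.885), and the most frequent orders of livers over all genes (18.6% and 15.6%) had both replicate 2 livers on top. The numbers were not taken to pair the samples. A replicate block gave 0 members past the threshold, 0 with a p under 0.05 and a median of 0.091. Over the 36 members tested, 298 of 300 log2 fold changes kept their sign under the settings that kept all livers. *Dcn* turned to 0.03 with median-ratio rescaling and *Pdgfra* to 0.01 with quantile normalization. With a liver left out, 32 of 144 values turned. The ranges of the log2 fold change for the genes that turned were *Acta2* (−0.40 to 0.94), *Col14a1* (−0.01 to 0.30), *Col18a1* (−0.04 to 0.13), *Col1a1* (−0.05 to 0.57), *Col20a1* (−0.55 to 0.76), *Col4a1* (−0.27 to 0.50), *Col4a2* (−0.05 to 0.31), *Col5a1* (−0.17 to 0.39), *Col5a3* (−1.17 to 0.07), *Col6a1* (−0.22 to 0.46), *Col6a2* (−0.49 to 0.13), *Col6a3* (−0.14 to 0.47), *Ctgf* (−0.19 to 0.34), *Dcn* (−0.18 to 0.17), *Loxl1* (−0.92 to 0.09), *Lrat* (−1.02 to 0.13), *Lum* (−0.55 to 0.30), *Mmp2* (−0.48 to 0.16), *Pdgfra* (−0.13 to 0.04), *Reln* (−0.05 to 0.24), *Sparc* (−0.39 to 0.12), *Tagln* (−0.07 to 0.86) and *Timp2* (−0.25 to 0.35). The cause of these turns was not tested. The members that kept their sign ranged over *Col13a1* (−0.88 to −0.27), *Col15a1* (0.08 to 1.00), *Col1a2* (0.04 to 0.46), *Col27a1* (−0.82 to −0.05), *Col3a1* (0.03 to 0.84), *Des* (0.05 to 0.12), *Fn1* (0.14 to 0.99), *Hand2* (−0.58 to −0.18), *Loxl2* (0.05 to 0.15), *Mmp14* (0 to 0.44), *Pdgfrb* (−0.18 to −0.03), *Timp1* (−0.82 to −0.20) and *Timp3* (0.09 to 0.51). With 2 livers a group, a log2 difference had to exceed 0.678 to 0.958, depending on the gene, to reach a p of 0.05.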
